A study of Xenopus laevis with 45 samples.

Results

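The genes described here take up, store, export, sense and use iron in embryos of the frog Xenopus laevis. They were chosen by name from a list of 36 symbols of iron uptake, storage and regulation, keeping every row whose name, without the suffix of its subgenome, is on the list. X. laevis is allotetraploid, and many of its genes have an L copy and an S copy (homeologs), which are counted here as separate genes. The list matched 44 copies of 28 symbols among 45038 gene identifiers, and 15 symbols had both an L and an S copy. For 8 symbols no row carried the name, and these are not analysed here: tf (transferrin), fth1 and ftl (ferritin chains), hamp (hepcidin), hfe, heph (hephaestin), pcbp1 and fxn (frataxin). Of the 44 copies, 43 passed the filter on low counts and were tested. The exception was ftmt.1, a ferritin gene with 0 or 1 count per library and 0 counts in 42 of 45 libraries.

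RNA of whole embryos was sequenced after injection of antisense morpholinos, oligonucleotides that block translation or splicing of their target RNA, against erythroferrone (ERFE). The injections went into 4 vegetal blastomeres at the 8-cell stage. The groups were 10 ng of ERFE MO1, set against 10 ng of a control morpholino (cMO), and 20 ng of ERFE MO2, set against 20 ng of cMO, with uninjected embryos beside them. All embryos were raised in 0.1x MBS, and RNA was taken at stages 35/36, 37/38 and 41, so that 15 groups of 3 libraries each make up the 45 libraries. The labels do not say that libraries of a group came from separate clutches, so p-values measure the spread between these libraries, which may be technical. No deletion or transgene was used, so the targeted gene itself stays in place, and a morpholino acts in descendants of the injected cells.

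Erythroferrone is a hormone that, in mammals, is secreted by red cell precursors, binds bone morphogenetic proteins (BMPs) and lowers hepcidin. Hepcidin, made in the liver, binds the exporter ferroportin (slc40a1) and causes its degradation, so that less iron enters the blood. Inside cells, iron regulatory proteins bind stem-loops in the messenger RNAs of the transferrin receptor, ferritin and ferroportin when iron is scarce, which sets uptake, storage and export at the level of RNA stability and translation. Such control of translation is not visible in RNA counts.

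Between 19342567 and 41922031 reads were assigned to genes in each library (median 32828061). Values below are CPM, counts relative to library size, scaled to the library size adjusted by TMM, a scaling factor fitted per library. CPM is not divided by gene length, so levels are compared between groups and not between genes. The library labelled ERFE MO2 stage 35/36 replicate 1 had nearly the same counts as ERFE MO1 stage 37/38 replicate 2: their chi-square per gene was 1.215 (31152 genes compared), whereas no other of the 990 possible pairs came below 3.802. Over genes, deviations of the first library from its group mean correlated with those of 20 ng cMO replicate 1 of its stage at r = 0.0777. For MO1 stage 37/38 replicate 2 and 10 ng cMO replicate 2 of its stage, r was 0.527. The first library is called the doubted library below, and which of both labels is right was not tested. Values with MO2 at stage 35/36 and with MO1 at stage 37/38 include these libraries, and several are also given without them. RNA of the targeted gene, listed as fam132b.L, was not absent after either morpholino: at stage 41 it had 2.32, 5.41 and 7.03 CPM with MO1, against 4.24, 8.49 and 8.69 CPM with 10 ng cMO, and it had 2.24, 5.12 and 3.98 CPM with MO2, against 4.37, 7.81 and 8.38 CPM with 20 ng cMO. At the earlier stages it ranged from 1.40 to 4.76 CPM with the ERFE morpholinos and from 1.88 to 6.42 CPM with cMO. A morpholino need not lower its target RNA, so these levels do not check the knockdown.

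In the fit without a block for the replicate number, few of the iron genes passed the test with either ERFE morpholino. The one that passed the test against its own control was aco1.L, which encodes cytosolic aconitase, an enzyme that becomes iron regulatory protein 1 when it loses its iron-sulfur cluster. It was lower with MO1 at stage 41. Averaged over MO1 and MO2 at that stage, ncoa4.L was lower as well. NCOA4 carries ferritin to the lysosome so that stored iron is released. With the replicate number as a block, 8 iron genes passed with MO1 at stage 41 (18.6% of 43, against 13.4% of all genes). With MO2 at that stage 3 passed (6.98%, against 5.8%), and for the mean response 15 (34.9%, against 19%). Without the block, more iron genes passed with normal development. Between stages 37/38 and 41 of uninjected embryos, 13 of 43 iron genes passed the test (30.2%), against 30.1% of all tested genes.

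In numbers, edgeR's quasi-likelihood test with Benjamini-Hochberg adjustment over 31817 genes called 0 of 43 iron genes at an adjusted p under 0.05 with MO1 at stage 35/36, where 0.39% of all tested genes were called, and 7 iron genes had an unadjusted p under 0.05 (16.3%, against 6.38% of all genes). At stage 37/38 it called 0 iron genes with MO1, against 0.6% of all genes, with 5 at an unadjusted p under 0.05 (11.6%, against 7.21%). With MO1 at stage 41 it called 1 iron gene (2.33% of 43), against 1.51% of all genes, with 6 at an unadjusted p under 0.05 (14%, against 11.9%). With MO2 it called 0 iron genes at stages 35/36, 37/38 and 41, against 0.0189%, 0.0974% and 0.412% of all genes, and 6, 3 and 5 iron genes had an unadjusted p under 0.05 (14%, 6.98% and 11.6%, against 5.35%, 5.2% and 8.69% of all genes). Those with MO2 at stage 35/36 include steap4.L, cp.L and slc11a1.L, and those with MO1 at stage 37/38 include steap4.L. Their fold changes shrank without the near-identical library of that group, as given further on. The unadjusted counts without these libraries are not given here. DESeq2 called aco1.L with MO1 at each stage and no iron gene with MO2. Taking the mean of both responses at stage 41, 2 iron genes were called (4.65% of 43), against 4.04% of all genes, and 13 had an unadjusted p under 0.05 (30.2%, against 16.2%). As 1 call among 43 genes is already 2.33%, the shares called after adjustment cannot show whether iron genes differ from all genes. The median log2 fold change of the iron genes was between -0.0452 and -0.0127 in the 6 comparisons of an ERFE morpholino with its control, and that of all genes was between -0.0102 and 0.00205.

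The libraries of every group carry replicate numbers 1 to 3 in the labels, and libraries with the same number at the same stage deviated together from their group means. With that number as a block within stage, the same test called 3 iron genes with MO1 at stage 35/36, where 2.5% of all genes were called, 1 at stage 37/38 (3.64% of all genes) and 8 at stage 41 (13.4% of all genes). With MO2 it called 0 at stage 35/36 (0.563% of all genes), 2 at stage 37/38 (1.62%) and 3 at stage 41 (5.8%). For the mean of both responses at stage 41 it called 15 iron genes, 6 higher and 9 lower, which is 34.9% of 43 against 19% of all genes. Fold changes below are from the fit without the block unless the block is named. Where the block changes a call its adjusted p is added, though not for each call of the mean response. Without the block, the deviations shared by libraries of a number count as spread within a group. The biological coefficient of variation, a measure of the spread between libraries of a group, was 0.20 without the block and 0.108 with it.

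**Figure D1:**
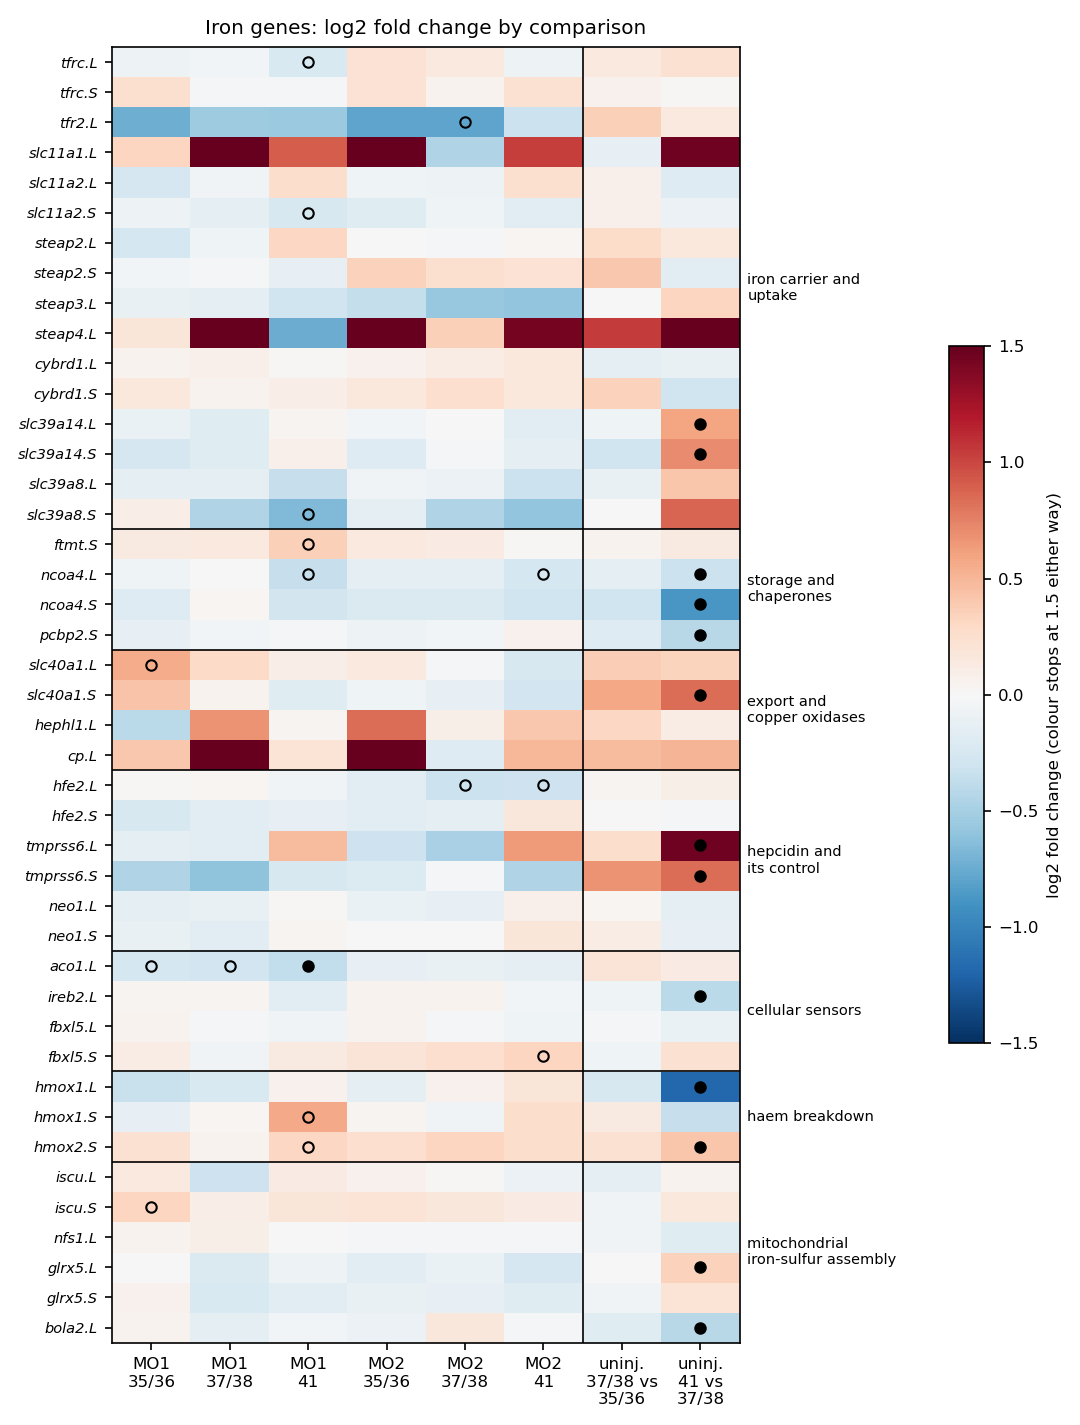
Log2 fold change of the 43 tested iron genes (rows, grouped by role) in the 6 comparisons of an ERFE morpholino with the same amount of control morpholino and in the 2 steps of development of uninjected embryos (columns); colour stops at 1.5 in either direction. Filled circles mark an adjusted p under 0.05 without a replicate block and open circles, drawn for the morpholino comparisons, one with the block alone. The last column holds 13 filled circles, and the morpholino columns hold 1, at aco1.L.

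The uptake genes were the largest role, with 16 copies of 10 symbols. None passed the test with MO1 or MO2 at stage 41, where 7 were above 0 and 9 below with MO1, and 8 were above and 8 below with MO2. The transferrin receptor, tfrc, brings transferrin-bound iron into cells. At stage 41 tfrc.L had 56.7, 55.2 and 74.5 CPM with MO1, against 62.1, 69.3 and 87.0 CPM with 10 ng cMO. The groups overlapped, but the MO1 library was the lower one in each pair of the same number. Its log2 fold change was -0.23 ± 0.18 (SE of the fit, n = 3 per group; edgeR adjusted p = 0.673, and 0.0417 with the replicate block). With MO2 tfrc.L had 62.3, 69.0 and 79.4 CPM, against 65.0, 69.5 and 86.8 CPM with 20 ng cMO, a log2 fold change of -0.07 ± 0.18 (edgeR adjusted p = 0.995). The other copy, tfrc.S, had 22.9, 27.4 and 17.5 CPM with MO1 at stage 41, against 21.4, 28.9 and 17.96 CPM with 10 ng cMO (log2 fold change -0.01 ± 0.21), and 22.4, 29.0 and 17.4 CPM with MO2, against 21.1, 20.6 and 17.0 CPM with 20 ng cMO (0.23 ± 0.21); edgeR's adjusted p-values were 0.99 and 0.922. In all 4 groups tfrc.S was lowest in library 3.

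Transferrin receptor 2, which in mammals senses transferrin-bound iron on liver cells and red cell precursors, was lower with the ERFE morpholino in all 18 same-numbered pairs (tfr2.L), the only one of the 43 genes for which this held. The share of all genes for which it holds was not worked out, and the near-identical libraries stand in separate pairs. Both limits also hold for the pair counts of other genes given below. At stage 35/36 tfr2.L had 6.31, 7.15 and 9.68 CPM with MO1, against 9.75, 9.90 and 18.8 CPM with 10 ng cMO. With MO2 it had 10.2, 4.96 and 7.49 CPM, against 12.2, 10.2 and 17.2 CPM with 20 ng cMO. The MO1 libraries lay just below their controls, and the MO2 libraries overlapped theirs. At stage 37/38 it had 8.77, 11.4 and 18.2 CPM with MO1, against 17.8, 17.98 and 19.7 CPM with 10 ng cMO, and 8.61, 8.23 and 18.8 CPM with MO2, against 20.4, 17.1 and 24.5 CPM with 20 ng cMO. In both ERFE groups library 3 reached the control range and the others stayed well below it. At stage 41 it had 13.1, 10.9 and 14.9 CPM with MO1, against 16.4, 21.9 and 19.1 CPM with 10 ng cMO, which did not overlap, and 12.7, 18.97 and 14.2 CPM with MO2, against 16.3, 22 and 19.3 CPM with 20 ng cMO, which did. The log2 fold changes ran from -0.80 ± 0.29, with MO2 at stage 37/38, to -0.33 ± 0.29, with MO2 at stage 41, and none passed edgeR's test (adjusted p = 0.451 to 0.917). Without the doubted library the MO2 value at stage 35/36 was -1.07 ± 0.33 (adjusted p = 0.392), against -0.79 ± 0.30 with it, and without MO1 stage 37/38 library 2 the MO1 value at that stage was -0.46 ± 0.33, against -0.53 ± 0.29 with it. The MO2 value at stage 37/38 was -1.29 without MO2 library 3 (adjusted p = 0.102). With the block, the MO2 response at stage 37/38 (adjusted p = 0.0353) and the mean response at stage 41 (-0.44 ± 0.15 in that fit, adjusted p = 0.0412) passed.

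tfr2 is expressed in mammals by liver and red cells, so the markers of these tissues are given beside it. These are RNA levels of whole embryos, in which fewer cells of a type and less RNA per cell cannot be told apart. The summed level of 20 liver marker copies at stage 35/36 was 1613 to 2657 CPM with MO1, against 3135 to 4346 CPM with 10 ng cMO, and 1681 to 3363 CPM with MO2, against 2769 to 5185 CPM with 20 ng cMO. At stage 37/38 it was 2845 to 4912 CPM with MO1, against 4932 to 5808 CPM with 10 ng cMO, and 2542 to 4382 CPM with MO2, against 4189 to 6524 CPM with 20 ng cMO. At stage 41 it was 5165 to 7861 CPM with MO1, against 6604 to 8780 CPM with 10 ng cMO, and 4329 to 6774 CPM with MO2, against 6682 to 8420 CPM with 20 ng cMO. Red cell markers, 20 copies, summed at stage 35/36 to 350 to 849 CPM with MO1, against 381 to 865 CPM with 10 ng cMO. With MO2 at that stage they summed to 425 to 661 CPM, against 509 to 795 CPM with 20 ng cMO. At stage 37/38 they summed to 462 to 1000 CPM with MO1, against 706 to 1064 CPM with 10 ng cMO, and to 414 to 813 CPM with MO2, against 717 to 969 CPM with 20 ng cMO. At stage 41 they summed to 481 to 1310 CPM with MO1, against 645 to 1823 CPM with 10 ng cMO, and to 556 to 1045 CPM with MO2, against 766 to 2181 CPM with 20 ng cMO. No liver marker was at 0 in any library, and 4 red cell markers were at 0 in at least 1. The part of these tissues in the level of tfr2.L was not tested.

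The remaining uptake genes encode the zinc and iron importers slc39a8 (ZIP8) and slc39a14 (ZIP14), the metal transporters slc11a1 and slc11a2 (DMT1) and the ferric reductases of the steap and cybrd1 families. Values of steap4.L and slc11a1.L are given further on, with the few libraries in which they were high. At stage 41 slc39a8.S had 8.12, 14.3 and 21.4 CPM with MO1, against 12.9, 24.7 and 31.9 CPM with 10 ng cMO. The groups overlapped because library 1 was low in both, and within each number the MO1 library was lower. The log2 fold change was -0.67 ± 0.35 (edgeR adjusted p = 0.455, and 0.0126 with the block). slc11a2.S was likewise called with the block alone, at -0.24 ± 0.07 in that fit (edgeR adjusted p = 0.0195, and 0.375 without it), with 31.1, 28.0 and 34.3 CPM with MO1, against 36.2, 33.6 and 40.9 CPM with 10 ng cMO. The other copy, slc11a2.L, had log2 fold changes from -0.25 to 0.26 in the 6 comparisons and was not called with or without the block. The endosomal reductase steap3.L, which in mammals lets transferrin iron leave the endosome, was lower in 16 of 18 same-numbered pairs and was called for the mean response at stage 41 with the block (-0.43 ± 0.12 in that fit, adjusted p = 0.0148, and 0.268 without it). The 2 cybrd1 copies, encoding duodenal cytochrome b, lay above 0 in all 6 comparisons, at most at a log2 fold change of 0.25, with none called.

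Over the 6 comparisons of an ERFE morpholino with its control, 7 of the 43 genes were below 0 in each (aco1.L, ncoa4.L, slc11a2.S, slc39a8.L, steap3.L, tfr2.L and tmprss6.S) and 5 were above 0 in each (both cybrd1 copies, ftmt.S, hmox2.S and iscu.S). Without MO1 stage 37/38 library 2, ncoa4.L was at 0.08 ± 0.13 with MO1 at that stage and left the first of these lists. The lists without the near copy of that library are not given here. The near-identical libraries stand in separate comparisons, so the 6 comparisons are not independent. The share of all genes with the same direction in all 6 was not worked out. These counts are therefore not a result about iron genes in particular.

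**Figure D2:**
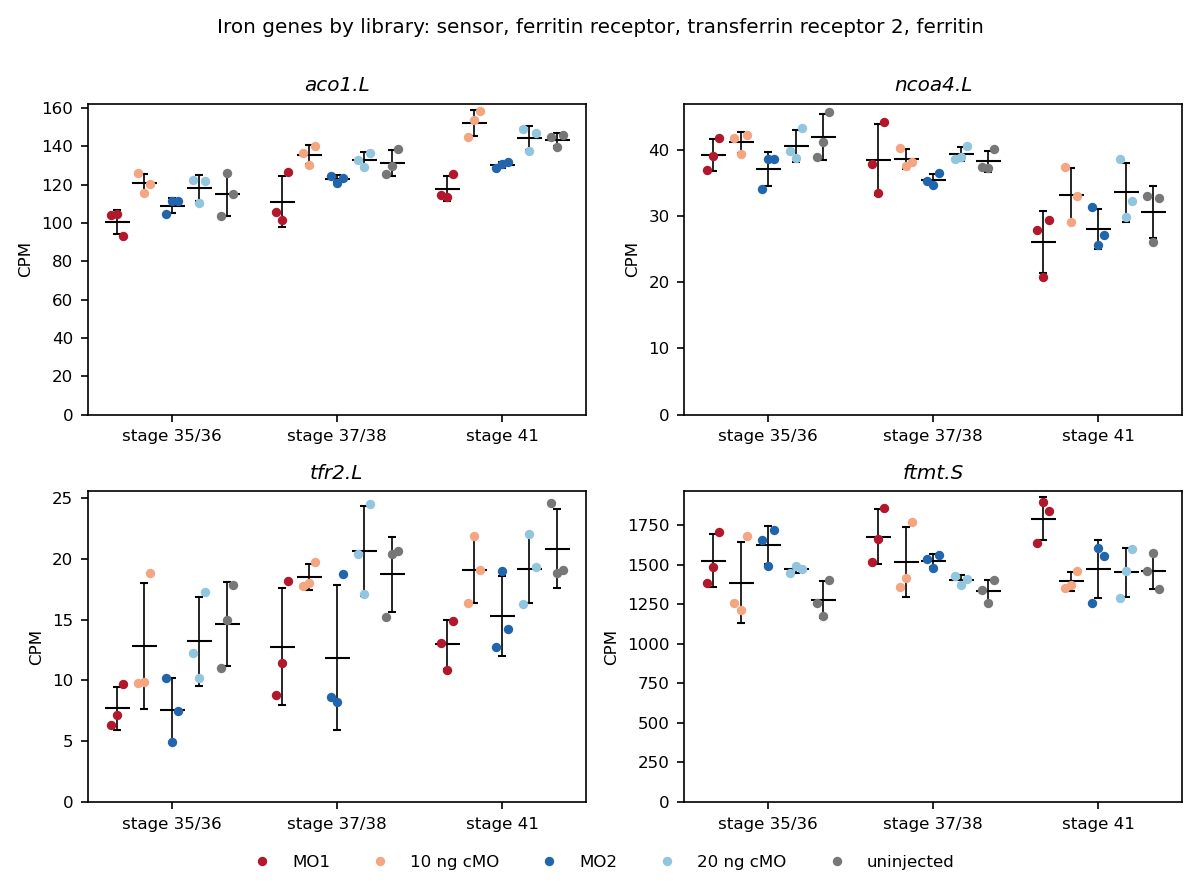
CPM of aco1.L, ncoa4.L, tfr2.L and ftmt.S in every library (points, coloured by condition) at stages 35/36, 37/38 and 41; horizontal lines are group means, and bars are SD over 3 libraries. At stage 41 the MO1 points of aco1.L lie between 114 and 125 CPM and those of 10 ng cMO between 145 and 158 CPM, without overlap.

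Of the storage genes, the ferritin receptor gene ncoa4.L was called for the mean response at stage 41. It had 28.0, 20.8 and 29.5 CPM with MO1, against 37.4, 29.2 and 33.0 CPM with 10 ng cMO, and 31.4, 25.7 and 27.2 CPM with MO2, against 38.6, 29.9 and 32.3 CPM with 20 ng cMO. Each ERFE library was below the control of its number, while both groups overlapped their controls because the number 2 libraries were low everywhere. The log2 fold change was -0.35 ± 0.11 with MO1 (edgeR adjusted p = 0.139, and 0.000972 with the block) and -0.26 ± 0.11 with MO2 (0.479, and 0.0239 with the block). Their mean was -0.30 ± 0.08 (adjusted p = 0.0247). Against uninjected embryos the mean response of ncoa4.L was -0.18 ± 0.10 (adjusted p = 0.504). The call was also lost on leaving out 10 ng cMO library 1 or 3, 20 ng cMO library 1, MO1 library 2, or MO2 library 2 or 3 (adjusted p up to 0.112), and in a fit of stage 41 alone (adjusted p = 0.243). At stages 35/36 and 37/38 its log2 fold changes lay between -0.15 and -0.01, and without MO1 stage 37/38 library 2 that with MO1 at stage 37/38 was 0.08. The other copy, ncoa4.S, was lower in 16 of 18 same-numbered pairs and was called with the block alone, for the mean response (-0.29 ± 0.08 in that fit, adjusted p = 0.0125, and 0.417 without it).

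The gene listed as ftmt.S, named for mitochondrial ferritin, moved the other way with MO1. At stage 41 it had 1640, 1897 and 1838 CPM with MO1, against 1351, 1375 and 1462 CPM with 10 ng cMO, and the groups did not overlap. The log2 fold change was 0.36 ± 0.11 (edgeR adjusted p = 0.112, and 0.00374 with the block). With MO2 it had 1262, 1605 and 1557 CPM, against 1292, 1464 and 1602 CPM with 20 ng cMO, a log2 fold change of 0.02 ± 0.11. The difference between both responses was 0.34 ± 0.16, with an unadjusted p of 0.0408 and an edgeR adjusted p of 1.0. pcbp2.S, whose product delivers iron to ferritin in mammals, was not called with either morpholino, with log2 fold changes from -0.12 to 0.06.

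Ferroportin, encoded by slc40a1, is the exporter that hepcidin acts on. At stage 35/36 slc40a1.L had 72.5, 50.5 and 73.2 CPM with MO1, against 46.2, 37.7 and 48.9 CPM with 10 ng cMO. The groups did not overlap, with number 2 low in both. The log2 fold change of 0.56 ± 0.22 was called with the block alone (edgeR adjusted p = 0.566 without it and 0.0112 with it). MO2 at that stage gave 51.2, 33.0 and 51.4 CPM, against 42.5, 34.8 and 45.2 CPM with 20 ng cMO. slc40a1.S at stage 35/36 had 61.9, 50.5 and 46.1 CPM with MO1, against 39.6, 36.4 and 42.1 CPM with 10 ng cMO, again without overlap (log2 fold change 0.43 ± 0.20, edgeR adjusted p = 0.742).

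By stage 41 neither ferroportin copy was separated from its control. slc40a1.L then had 70.0, 58.0 and 99.6 CPM with MO1, against 59.1, 60.1 and 92.9 CPM with 10 ng cMO (0.10 ± 0.22), and 48.4, 50.9 and 73.6 CPM with MO2, against 55.3, 65.1 and 83.4 CPM with 20 ng cMO (-0.24 ± 0.22). slc40a1.S had 82.2, 97.4 and 132.6 CPM with MO1, against 89.5, 128.2 and 135.3 CPM with 10 ng cMO (-0.18 ± 0.20), and 71.3, 89.6 and 102.6 CPM with MO2, against 83.6, 121.2 and 116.1 CPM with 20 ng cMO (-0.28 ± 0.20). All 4 groups overlapped their controls, and edgeR's adjusted p was 0.793 to 0.925. The MO1 response at stage 41 minus that at stage 35/36 was not called for any iron gene, where 0.00629% of all genes were called; 3 iron genes had an unadjusted p under 0.05, DESeq2 called 0, and the block gave 0 with 0.519% of all genes called.

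Among genes that control hepcidin, hemojuvelin (hfe2) and neogenin (neo1) form a BMP co-receptor complex in mammals, and the protease gene tmprss6 encodes matriptase-2, which in mammals cleaves hemojuvelin. For hfe2.L with MO2, at stage 37/38 it had 13.3, 17.1 and 17.9 CPM, against 17.2, 20.2 and 22.9 CPM with 20 ng cMO, and at stage 41 14.1, 18.1 and 19.1 CPM, against 17.0, 22.8 and 23.96 CPM with 20 ng cMO. Every MO2 library was below the control of its number, and the ranges overlapped. Both were called with the block alone, at log2 fold changes of -0.32 ± 0.08 and -0.31 ± 0.08 in that fit (edgeR adjusted p = 0.0366 and 0.0168, and 1.0 and 0.674 without the block). With MO1 hfe2.L lay between 15.9 and 23.4 CPM at the 3 stages, against 15.8 to 26.0 CPM with 10 ng cMO, and was not called. The other copy, hfe2.S, had log2 fold changes from -0.16 to 0.18 with MO2 and was not called with or without the block. tmprss6.S at stage 37/38 had 2.02, 1.61 and 1.60 CPM with MO1, against 3.40, 2.39 and 2.13 CPM with 10 ng cMO, without overlap (-0.60 ± 0.21, edgeR adjusted p = 0.324). This value was -0.55 ± 0.24 without MO1 library 2 (adjusted p = 0.578) and -0.38 without 10 ng cMO library 1. The other copy, tmprss6.L, had log2 fold changes from -0.18 to 0.48 with MO1 and from -0.49 to 0.63 with MO2 over the 3 stages. It was called higher for the mean response at stage 41 with the block alone, whereas tmprss6.S was not called there. neo1.S with MO2 at stage 41 had 132.2, 135.5 and 123.5 CPM, against 127.4, 114.5 and 103.7 CPM with 20 ng cMO, with overlap (0.18 ± 0.08, edgeR adjusted p = 0.485).

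Of the 4 copies of cellular sensors, aco1.L was called. At stage 41 it had 114, 114 and 125 CPM with MO1, against 145, 154 and 158 CPM with 10 ng cMO. The highest MO1 library was below the lowest control library, and the log2 fold change was -0.37 ± 0.07 (edgeR adjusted p = 0.00548). With MO2 at stage 41 it had 128.4, 130.7 and 131.5 CPM, against 149, 137 and 147 CPM with 20 ng cMO. These groups did not overlap either, but the log2 fold change of -0.15 ± 0.07 was not called (edgeR adjusted p = 0.575). The response to MO1 minus that to MO2 was -0.22 ± 0.10, with an unadjusted p of 0.0448 and an edgeR adjusted p of 1.0, so a difference between the morpholinos was not shown. The mean of both was -0.26 ± 0.05 (edgeR adjusted p = 0.00248).

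aco1.L was also lower with MO1 at the earlier stages. At stage 35/36 it had 104, 105 and 93.3 CPM with MO1, against 126, 116 and 120 CPM with 10 ng cMO, and at stage 37/38 106, 101 and 126 CPM with MO1, against 136, 130 and 140 CPM with 10 ng cMO. Neither pair of groups overlapped. The log2 fold changes were -0.26 ± 0.07 and -0.29 ± 0.07, with edgeR adjusted p-values of 0.154 and 0.0652, and of 0.024 and 0.00752 with the block. Without MO1 stage 37/38 library 3 the value at that stage was called (adjusted p = 0.0114), and without library 2, the near copy of another library, it was -0.23 (adjusted p = 0.327). MO2 gave 104, 111 and 111 CPM at stage 35/36, against 122, 111 and 122 CPM with 20 ng cMO, and 125, 121 and 124 CPM at stage 37/38, against 133, 129 and 137 CPM with 20 ng cMO. The MO2 groups overlapped their controls at stage 35/36 and not at stage 37/38, and the log2 fold changes were -0.12 ± 0.07 and -0.11 ± 0.07 (edgeR adjusted p = 1.0 for both). Over both morpholinos and 3 stages the ERFE library was lower in 17 of 18 same-numbered pairs. As for tfr2.L, the share of all genes with such a count was not worked out.

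The call of aco1.L with MO1 at stage 41 held on leaving out each library in turn (adjusted p = 0.00277 to 0.0398). It was lost when the fit held stage 41 alone (adjusted p = 0.0636). Against uninjected embryos, which had 145, 139 and 146 CPM, the MO1 value at stage 41 was -0.28 ± 0.07 (adjusted p = 0.0354) and the mean of both morpholinos was -0.21 ± 0.06 (adjusted p = 0.0789). The partner of aco1, ireb2.L (iron regulatory protein 2), was not called with either morpholino; its log2 fold changes ran from -0.16 to 0.05.

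fbxl5 encodes the ubiquitin ligase subunit that senses iron and removes iron regulatory protein 2. fbxl5.S at stage 41 had 31.2, 33.9 and 28.6 CPM with MO2, against 21.7, 27.4 and 25.7 CPM with 20 ng cMO. The groups did not overlap, and the log2 fold change was 0.32 ± 0.11 (edgeR adjusted p = 0.218, and 0.015 with the block). Uninjected embryos had 29.9, 26.1 and 25.8 CPM, so the MO2 libraries overlapped that range. With MO1 it had 26.0, 29.8 and 25.1 CPM, against 22.3, 26.1 and 25.0 CPM with 10 ng cMO, and the mean response was 0.23 ± 0.08 (edgeR adjusted p = 0.078, and 0.00542 with the block). At stage 37/38 fbxl5.S had 31.1, 29.5 and 26.6 CPM with MO2, against 29.0, 23.2 and 21.1 CPM with 20 ng cMO (0.25 ± 0.11, edgeR adjusted p = 0.812). The other copy, fbxl5.L, had log2 fold changes from -0.07 to 0.06 over both morpholinos and all stages, and was not called.

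Haem oxygenases break down haem and set its iron free. All 3 tested copies, hmox1.L, hmox1.S and hmox2.S, lay above 0 at stage 41 with both morpholinos, and none was called without the block. hmox1.S had 23.0, 12.4 and 19.5 CPM with MO1, against 13.6, 10.9 and 12.6 CPM with 10 ng cMO, and 14.3, 15.6 and 15.8 CPM with MO2, against 12.6, 10.98 and 14.4 CPM with 20 ng cMO. Each ERFE library was above the control of its number, and MO1 libraries 1 and 3 were the highest. The log2 fold changes were 0.57 ± 0.20 with MO1 (edgeR adjusted p = 0.164, and 0.00954 with the block) and 0.26 ± 0.20 with MO2 (0.859). Without MO1 stage 41 library 1 the MO1 value was 0.33 (adjusted p = 0.401).

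The other haem oxygenase copies behaved as follows. hmox1.L had 35.1, 20.2 and 34.3 CPM with MO1, against 34.6, 22.5 and 28.9 CPM with 10 ng cMO (0.06 ± 0.16), and 35.3, 29.4 and 35.2 CPM with MO2, against 32.6, 26.5 and 28.9 CPM with 20 ng cMO (0.18 ± 0.16), and the groups overlapped. hmox2.S, the constitutive form, had 26.5, 33.5 and 27.4 CPM with MO1, against 19.02, 24.9 and 26.4 CPM with 10 ng cMO, just without overlap (0.31 ± 0.14), and edgeR's adjusted p was 0.327, and 0.0294 with the block. With MO2 at stage 37/38 hmox2.S had 23.0, 19.8 and 19.8 CPM, against 18.2, 14.4 and 17.2 CPM with 20 ng cMO, without overlap (0.33 ± 0.14, edgeR adjusted p = 0.8).

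Iron-sulfur cluster assembly in mitochondria uses the scaffold iscu, the sulfur donor nfs1 and the carrier glrx5. bola2, which works with glutaredoxins, was grouped with them here, which does not place its product in mitochondria. Of the 6 copies, iscu.S was above 0 in all 6 comparisons. At stage 35/36 it had 71.9, 73.0 and 82.4 CPM with MO1, against 54.3, 59.6 and 67.4 CPM with 10 ng cMO, without overlap. The log2 fold change was 0.33 ± 0.10 (edgeR adjusted p = 0.184, and 0.0148 with the block). The other 5 copies were between -0.31 and 0.17 in the 6 comparisons, and none was called with or without the block.

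The largest fold changes with the ERFE morpholinos rested largely on a few libraries. They were those of cp.L (ceruloplasmin, the plasma ferroxidase), steap4.L (a metalloreductase), slc11a1.L (NRAMP1, the phagosomal metal exporter of macrophages) and, smaller, hephl1.L (a ferroxidase related to hephaestin). In the library labelled MO2 stage 35/36 replicate 1 these had 12.7, 9.45, 7.25 and 35.3 CPM in that order, and in its near copy, MO1 stage 37/38 replicate 2, they had 12.1, 9.66, 8.13 and 36.8 CPM. MO2 stage 41 replicate 2 had 4.25, 7.56, 8.13 and 36.1 CPM. Over all 45 libraries the medians were 0.881, 0.252, 0.951 and 13.5 CPM. These 3 libraries were the 3 highest of 45 for steap4.L, slc11a1.L and hephl1.L, and the first pair was the highest for cp.L, followed by MO1 stage 41 replicate 1 at 5.83 CPM and a control library, 10 ng cMO stage 41 replicate 2, at 5.39 CPM. For slc11a1.L the next highest were MO1 stage 41 replicates 1 and 2, at 4.19 and 2.27 CPM. hephl1.L was higher in 8 of 9 same-numbered pairs with MO2 and in 5 of 9 with MO1.

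A hepcidin-family gene outside the list, hamp2.L, was high in the same libraries. It had 111, 110 and 79.5 CPM in the library labelled MO2 stage 35/36 replicate 1, in MO1 stage 37/38 replicate 2 and in MO2 stage 41 replicate 2, and 81.4 CPM in MO1 stage 41 replicate 1. The median over 45 libraries was 10.3 CPM, and no control or uninjected library was above 25.6 CPM. These 4 libraries were the 4 highest, and the other libraries of their groups had 4.95 to 33.2 CPM. At stage 41 hamp2.L had 33.2, 79.5 and 30.9 CPM with MO2, against 10.1, 13.0 and 20.8 CPM with 20 ng cMO, without overlap. The higher values with MO2 at stage 41 were thus not confined to 1 library. With MO1 it had 81.4, 23.7 and 20.9 CPM, against 25.6, 16.8 and 8.10 CPM with 10 ng cMO, with overlap. At stage 35/36 MO2 replicate 3 was below its control, at 4.95 against 11.2 CPM. Its fold changes are not given here. hamp2.L was chosen for mention after its values were seen.

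The fold changes of steap4.L, cp.L and slc11a1.L shrank without those libraries. At stage 35/36 the log2 fold changes with MO2 were 5.27 ± 1.51 for steap4.L, 2.67 ± 0.91 for cp.L and 2.19 ± 0.78 for slc11a1.L (edgeR adjusted p = 0.426, 0.598 and 0.666). Without the doubted library they were 0.80 ± 1.90, -0.40 ± 0.93 and 0.82 ± 0.83. At stage 37/38 MO1 gave 4.53 ± 1.40 for steap4.L (adjusted p = 0.185) and 0.12 ± 1.62 without library 2, and 2.47 ± 0.90 for cp.L and -0.12 ± 0.90 without it. In uninjected and control libraries steap4.L was at or under 0.2653 CPM before stage 41, and 3 of these libraries had 0 counts, which allows up to 3 counts in each by counting error alone. From these low levels steap4.L rose in uninjected embryos between stages 37/38 and 41. The log2 fold change was 3.81, not called, and 3.89 ± 1.57 with the number shared by the stages as a block (edgeR adjusted p = 0.0458).

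**Figure D3:**
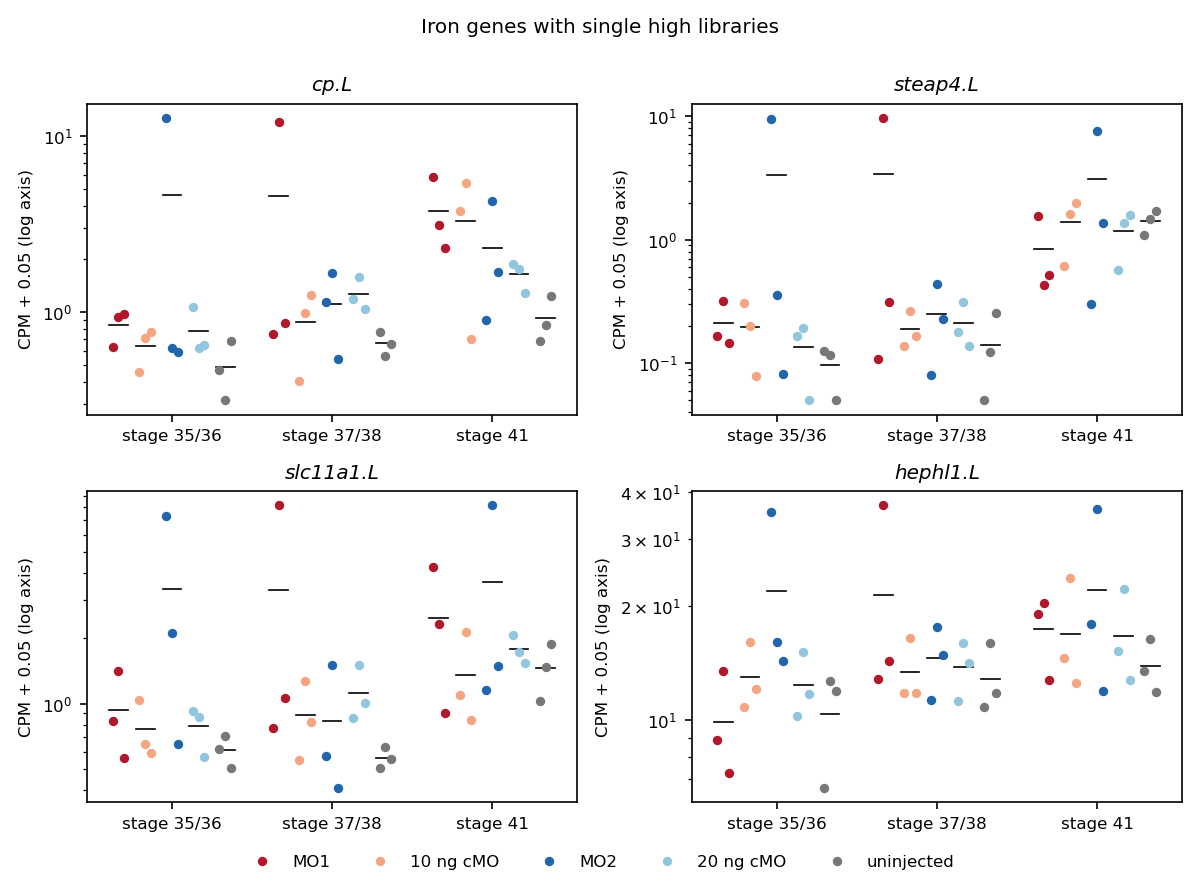
CPM + 0.05 (log axis) of cp.L, steap4.L, slc11a1.L and hephl1.L in every library by stage; points are libraries coloured by condition, and lines are group means. In each panel 1 MO2 library at stage 35/36 and 1 MO1 library at stage 37/38 stand far above the rest of their groups, at 12.7 and 12.1 CPM for cp.L.

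No iron gene passed the test between control morpholino and uninjected embryos. Over the 3 stages, 10 ng cMO against uninjected embryos gave 0 called iron genes, with 0.0346% of all genes called, and 20 ng cMO gave 0, with 0.167% of all genes called. In both, 0 iron genes had an unadjusted p under 0.05, and DESeq2 called 0 as well. The difference between the MO1 and MO2 responses was called for 0 iron genes at each stage, with 0%, 0.0409% and 0% of all genes called at stages 35/36, 37/38 and 41. At each stage 2 iron genes had an unadjusted p under 0.05, and DESeq2 called 0. With the replicate block the counts of iron genes stayed at 0, with 0.00943%, 0.443% and 0.289% of all genes called, and for the control morpholinos at 0 as well, with 0.226% (10 ng) and 1.54% (20 ng) of all genes called. The MO2 response at stage 41 minus that at stage 37/38 was called for 0 iron genes, with 0 at an unadjusted p under 0.05 and 0% of all genes called (0 iron genes and 0.0566% of all genes with the block).

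Normal development changed many of the iron genes late. In uninjected embryos, stage 37/38 against stage 35/36 gave 0 called iron genes, with 0.0723% of all genes called; 4 had an unadjusted p under 0.05, DESeq2 called 0, and a block for the number shared by the stages gave 0 with 1.21% of all genes called. Stage 41 against stage 37/38 gave 13 called, 7 higher and 6 lower, which is 30.2% of 43 against 30.1% of all genes. The share was thus close to that over all genes, and with the number shared by the stages as a block it was 17 of 43, against 41.4% of all genes.

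The largest falls among the called genes were those of hmox1.L and ncoa4.S. hmox1.L was at 29.1, 23.8 and 30.6 CPM in uninjected embryos of stage 41, against 60.6, 62.2 and 65.6 CPM at stage 37/38. The stages did not overlap, and the log2 fold change was -1.17 ± 0.16 (edgeR adjusted p = 5.1e-06). ncoa4.S had 35.9, 21.1 and 37.1 CPM at stage 41, against 50.02, 52.1 and 69.8 CPM at stage 37/38, again without overlap. It fell by 0.87 ± 0.24 (edgeR adjusted p = 0.00574; 0.0698 without uninjected stage 41 library 2). ncoa4.L fell by 0.32 ± 0.11, the iron regulatory protein gene ireb2.L by 0.41 ± 0.16, pcbp2.S by 0.42 ± 0.14 and bola2.L by 0.42 ± 0.14 on the log2 scale (adjusted p = 0.0191 to 0.0477). pcbp2.S was called although its stages overlapped.

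The called genes that were higher at stage 41 included slc40a1.S, 1 of 4 copies of export and copper oxidases, both tmprss6 copies, 2 of 6 copies of hepcidin control, and both slc39a14 copies, 2 of 16 uptake copies. slc40a1.S had 98.8, 142 and 106 CPM at stage 41, against 62.4, 73.4 and 58.3 CPM at stage 37/38. All stage 41 libraries were above all earlier ones, and the log2 fold change was 0.84 ± 0.20 (edgeR adjusted p = 0.0022). The L copy had 71.8, 67.7 and 81.0 CPM at stage 41, against 47.1, 61.2 and 66.6 CPM at stage 37/38, without overlap, and was not called (0.33 ± 0.22, adjusted p = 0.265). The importer slc39a14 rose in both copies: slc39a14.S had 20.9, 18.3 and 16.1 CPM at stage 41, against 12.0, 13.0 and 8.98 CPM at stage 37/38 (0.71 ± 0.18, adjusted p = 0.00443), and slc39a14.L rose by 0.59 ± 0.12.

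Both tmprss6 copies rose as well. tmprss6.S had 4.30, 5.77 and 5.24 CPM at stage 41, against 2.69, 2.46 and 3.39 CPM at stage 37/38 (0.84 ± 0.21, edgeR adjusted p = 0.00284). tmprss6.L had 1.08, 2.41 and 1.06 CPM, against 0.645, 0.687 and 0.339 CPM (1.46 ± 0.42, adjusted p = 0.00968), and its call was lost without uninjected stage 41 library 2 (0.945, adjusted p = 0.144) or stage 37/38 library 3 (0.0652). Neither copy overlapped between the stages. hmox2.S rose by 0.42 ± 0.14 and glrx5.L by 0.34 ± 0.13. The transferrin receptor did not pass the test: tfrc.L had 64.0, 66.0 and 79.6 CPM at stage 41, against 44.6, 70.2 and 64.1 CPM at stage 37/38 (0.23 ± 0.18), and tfrc.S had 22.1, 23.1 and 18.8 CPM, against 19.1, 25.8 and 18.5 CPM (0.02 ± 0.21), with edgeR adjusted p-values of 0.352 and 0.967. hmox1.S, at 12.9, 12.9 and 12.3 CPM, against 13.9, 15.7 and 18.97 CPM, was not called (-0.35 ± 0.20, adjusted p = 0.179) although the stages did not overlap.

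The count of 13 fell to 5 without uninjected stage 41 library 2 and to 7 without uninjected stage 37/38 library 3. The shares of all genes called in these refits are not given here, so the falls are not a result about iron genes in particular. hmox1.L, slc40a1.S, tmprss6.S and slc39a14.S were called on leaving out each library in turn. Markers of late organs moved with the stage: pancreas markers, 5 copies, summed to 21.8 to 102.5 CPM at stage 41, against 1.09 to 1.86 CPM at stage 37/38, and gut markers, 14 copies, to 199.9 to 416.4 CPM, against 90.1 to 186.2 CPM. Red cell markers summed to 1097 to 1650 CPM at stage 41, against 700.1 to 1073 CPM at stage 37/38, without overlap. Liver markers summed to 6895 to 8686 CPM, against 4224 to 7370 CPM, with overlap. Their part in the iron gene levels was not tested.

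**Figure D4:**
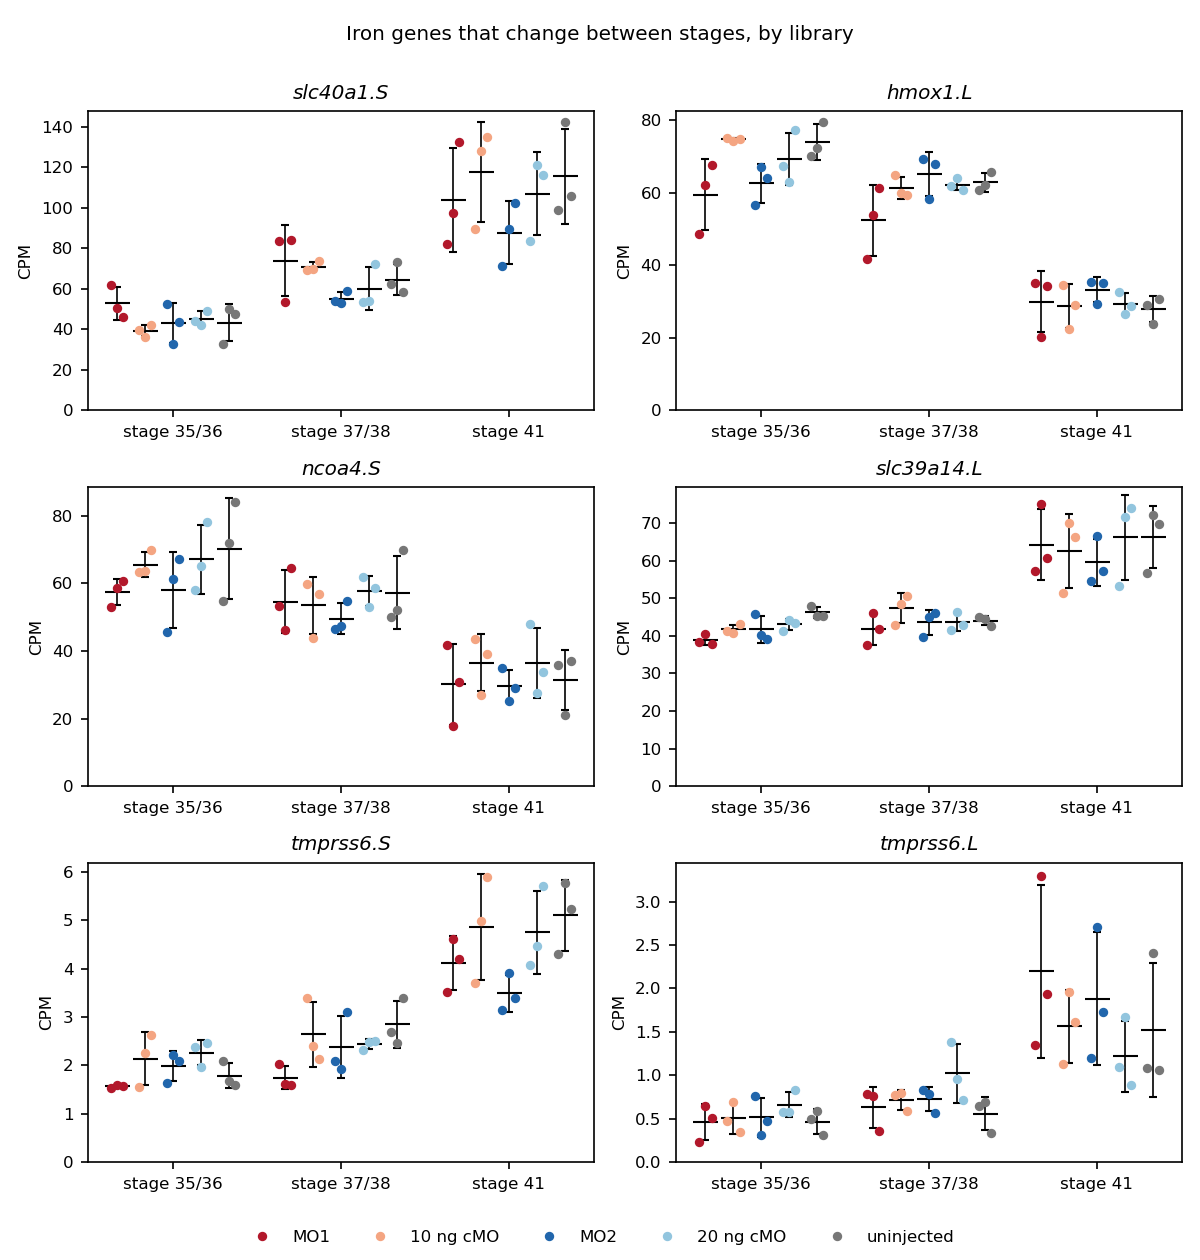
CPM of slc40a1.S, hmox1.L, ncoa4.S, slc39a14.L, tmprss6.S and tmprss6.L in every library at stages 35/36, 37/38 and 41; points are libraries coloured by condition, lines are group means and bars are SD over 3 libraries. In uninjected embryos hmox1.L is at 23.8 to 30.6 CPM at stage 41 and at 60.6 to 65.6 CPM at stage 37/38, and the injected groups lie beside the uninjected ones.

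Where both copies of a gene were counted, the share taken by the L copy stayed nearly level over the stages for most genes and shifted for a few. For hmox1 the L copy took 83.4 ± 0.808% of the counts of both copies at stage 35/36, 79.6 ± 1.89% at stage 37/38 and 68.5 ± 3.31% at stage 41 in uninjected embryos (SD, n = 3). For slc40a1 the share was 51.3 ± 3.55%, 47.3 ± 5.39% and 39.2 ± 6.10% at these stages, and for slc39a8 it was 43.2 ± 1.92%, 41.3 ± 2.24% and 34.0 ± 3.25%. For ncoa4 the L share was higher at the last stage, at 37.7 ± 3.38%, 40.4 ± 3.41% and 50 ± 4.54%. The shares are not adjusted for the length of the copies, and the shifts were not tested. Reads of near-identical copies may be assigned to the wrong one or left out, so the shares are uncertain.

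**Figure D5:**
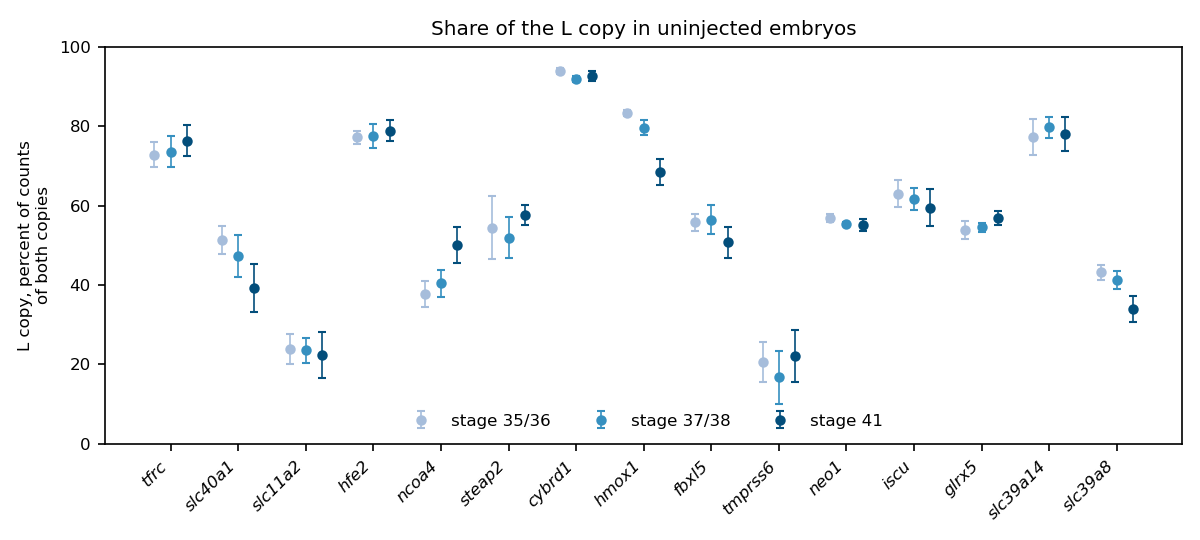
Percent of the counts of both copies taken by the L copy in uninjected embryos, for each symbol with an L and an S copy that passed the filter; points are means and bars are SD over 3 libraries, with stages 35/36, 37/38 and 41 from left to right and from light to dark. The share of hmox1 is 83.4%, 79.6% and 68.5% at the 3 stages.

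Other iron genes, from lists drawn up for the pathway, gave few calls. BMP to hepcidin signalling had 0 of 29 tested copies called with either morpholino at each stage, with medians at stage 41 of 0.11 with MO1 and 0.10 with MO2 (log2). The smallest p with MO1 at stage 41 was that of the ligand gene bmp2.S (0.60 ± 0.19, edgeR adjusted p = 0.112). Haem synthesis had 0 of 14 called, with medians at stage 41 of -0.16 with MO1 and -0.24 with MO2. With the block 2 of 14 fell with MO1 and 3 of 14 with MO2 at stage 41, where the block called 13.4% and 5.8% of all genes in either direction. Mitochondrial iron and iron-sulfur assembly had 0 of 21 called, cytosolic iron-sulfur assembly 0 of 12 and other iron and copper carriers 0 of 17 with either morpholino at each stage.

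Haem transport and breakdown had 1 of 12 called, blvrb.L (biliverdin reductase B), which was higher with MO1 at stage 35/36 (0.86 ± 0.20, edgeR adjusted p = 0.0337) and was chosen for mention after its value was seen. With MO1 and MO2 at stage 41 this list had 0 called, with medians of 0.20 and -0.10. Over all tested genes, 1.51% were called with MO1 and 0.412% with MO2 at stage 41, so 0 calls in lists of this size is close to that background.

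Markers of the liver, red cells, gut and pancreas were lower at the median after both morpholinos at stage 41, as were, by less, those of macrophages and leukocytes. Liver markers had medians of -0.68, -0.58 and -0.23 (log2) with MO1 at stages 35/36, 37/38 and 41 and of -0.72, -0.72 and -0.46 with MO2, and 2 of 20 were called lower at stage 41 with each. With MO1 these were the fibrinogen chains fga.S (-1.29 ± 0.32) and fgb.S (-1.44 ± 0.34), and with MO2 both copies of serpina1, an antiprotease (serpina1.L -1.32 ± 0.30, serpina1.S -1.51 ± 0.32). Red cell markers had medians of -0.16, -0.39 and -0.35 with MO1 and -0.17, -0.37 and -0.59 with MO2, with 0 of 19 called. Gut markers at stage 41 had medians of -0.88 with MO1 and -0.77 with MO2, with 1 of 14 called with MO1 (anpep.L, -1.08 ± 0.28). Pancreas markers at stage 41 had medians of -2.84 and -2.59, with 1 of 5 called with MO1 (cpa1.L, -3.72 ± 0.78). Macrophage and leukocyte markers had medians of -0.16 and -0.18 at stage 41, with 0 of 16 called. The part of these tissues in the levels of aco1.L and ncoa4.L was not tested.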

How the data were processed

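Counts of reads per gene were deposited by the authors, with no normalization. The tools, per the submitters' processing notes, were bcl2fastq 2.17.1.14, FastQC 0.11.5, STAR 2.5.2a, featureCounts 1.5.0-p1 and DESeq2 1.8.2; the sources used here give no build, annotation or rule for reads that map to several genes. The labels name a TruSeq RNA v2 kit, which does not mark strand, so overlapping and antisense genes cannot be told apart.

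The members, lists and tests were chosen with earlier results of these data known. With edgeR 4.0.16 in R 4.3.3, filterByExpr (minimum count 10) left 31817 genes. After TMM scaling (factors 0.936 to 1.07), a quasi-likelihood model had 1 coefficient for each of the 15 groups, which leaves 30 residual degrees of freedom; the biological coefficient of variation was 0.20. Tests were two-sided, with Benjamini-Hochberg adjustment over all genes of a comparison. The SE of a fold change is its size over the square root of F, and the prior count was 0.125. The fit was tested on simulated data. RefSeq symbols matched 37 of the 44 copies.

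Values are given for members called in an ERFE comparison, the 3 smallest p-values of each, all copies of slc40a1, tfrc and hmox1, and the 6 largest called changes between stages. Other members are examples of their role, chosen after their values were seen. From other lists, up to 4 genes with the smallest p at stage 41 could be named.

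Deviations from group means correlated above 0.1 in 35 of 36 same-numbered pairs of a stage (median r = 0.49, highest 0.718), and all 36 were highest with their own number. The exception involved the library labelled MO2 stage 35/36 replicate 1 (r = 0.0777); replicates 2 and 3 of MO2 at that stage had r = 0.316 and 0.338. The labels do not say what a number stands for. Lanes went largely with the number: number 1 was in lanes 1 and 2, number 2 in lanes 2 to 4 and number 3 in lanes 4 and 5. A lane term and the replicate block are therefore not separate checks. The alternatives were RLE scaling, no filter, DESeq2 1.42.0, a lane term, the replicate block, stages fitted alone, homeologs summed, uninjected embryos in place of cMO, and leaving out each library.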

Additional observations from a re-analysis of the deposited data

How the results depend on the processing

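Relative to the counts of iron genes called as reported, DESeq2 called 1 with MO1 at stages 35/36 and 37/38. A lane term called 2, 1 and 4 with MO1 at stages 35/36, 37/38 and 41, 7 for the mean response and 20 between stages 41 and 37/38. The replicate block called 3, 1 and 8 with MO1, 2 with MO2 at stage 37/38 and 3 at stage 41, and 15 for the mean response. The same block without the library labelled MO2 stage 35/36 replicate 1, an alternative chosen after seeing the data, called 4, 2 and 11 with MO1, 1, 3 and 4 with MO2 and 17 for the mean response. Fitting stage 41 alone called 0 with MO1 and 1 for the mean response; summed homeologs called 1 with MO1 at stage 37/38 and 1 for the mean response; uninjected embryos in place of cMO called 0 for the mean response. Leaving out each library gave 0 to 1 with MO1 at stage 37/38, 1 to 2 for the mean response and 5 to 15 between stages 41 and 37/38. Apart from the replicate block with all libraries, the shares of all genes called in these settings are not given here. These counts are therefore not a result about iron genes in particular. Causes were not tested. These log2 fold changes crossed 0, and none was called. cp.L with MO2 at stage 35/36 was -0.471 with the block and without the doubted library, and -0.405 to 3.22 on leaving out each library. tfrc.L with MO2 at stage 41 was 0.00709 against uninjected embryos and -0.16 to 0.063 by library left out. tfrc.S with MO1 at stage 41 was 0.123 with a lane term, 0.0798 against uninjected embryos and -0.173 to 0.195 by library left out; with MO2 it was -0.00199 for summed homeologs, and between stages 41 and 37/38 it was -0.00465 without the filter and -0.0732 to 0.183 by library left out. At stage 41 with MO1, slc40a1.L was -0.0882 for summed homeologs and -0.147 to 0.332 by library left out, and hmox1.L -0.109 to 0.277. RLE scaling moved no count by over 1.5 times. With 3 libraries per group, a change that misses the threshold is not shown to be absent, and reads of near-identical copies may be misassigned.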
